A study of Oncorhynchus kisutch with 82 samples.

Results

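The comparison set the gill of wild coho salmon (Oncorhynchus kisutch) caught as smolts in a river against the gill of wild coho caught at sea in spring, all in 2009. It took 8 of the 82 fish with gill arrays. They were chosen by their labels alone: 4 wild fish of the season Smolt_River from the capture area salmon, in fresh water, and 4 wild fish of the season Ocean_Spring from the capture area south_SoG, in sea water. No other fish entered the fit, and each fish was a separate animal on its own array.

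The smolts were fish 1435, 1439, 1441 and 1442, with fork lengths of 8.4, 8.8, 8.7 and 11.7 cm. The spring fish were 2133, 2134, 2247 and 2248, with fork lengths of 12.9, 11.1, 12.3 and 9.8 cm. All smolts came from 1 river and carried the stock region Fraser. The spring fish came from 2 capture sites, 2133 and 2134 from one and 2247 and 2248 from the other, with the stock regions S_Main for 2133, Chilliwack_R for 2134 and Fraser for 2247 and 2248. Sex was labelled M for smolts 1441 and 1442 and U for smolts 1435 and 1439 and every spring fish, so the groups could not be compared by sex. Life stage, water and place of capture changed together between the groups and cannot be told apart. Neither ages nor the time since sea entry are given in these sources.

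The gill is the organ through which a young salmon exchanges salt with the water around it. In fresh water its ionocytes take up sodium and chloride, and in sea water they secrete both, driven by Na,K-ATPase in the cell's basolateral membrane and with chloride leaving through CFTR, an apical channel. Smolts begin this change in the river, under growth hormone and cortisol, and complete it at sea.

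Each array hybridised the labelled RNA of a fish together with pooled gill RNA of the series in another dye, and the authors deposited the log ratio of the channels for each probe. Whether the ratio is fish over pool or pool over fish is not stated, so "higher" and "lower" below refer to the deposited log ratio. The log base is not stated either and was taken as log2, so sizes in fold hold only under that reading. No file pairs the probes with genes, so ion transport genes and the markers of gill cell types could not be looked up, and the labelled tissue could not be checked against its markers. Probes are given by their array IDs, 2 in each direction. RNA came from whole gill, so fewer cells of a type and less RNA per cell cannot be told apart.

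C140R014 showed the largest increase among called probes with a value in all 8 fish. Its log ratio was -1.47, -5.08, -2.96 and -3.54 in smolts 1435, 1439, 1441 and 1442, and 0.87, 1.62, 2.34 and 1.27 in spring fish 2133, 2134, 2247 and 2248. Every smolt lay below 0, the point of equal channels as deposited, and every spring fish above it. The spring fish were higher by 4.79 on the log2 scale (SE 0.59; 95% interval 3.50 to 6.08; limma, adjusted p = 3.0e-04).

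C229R086 came next. It read -1.14, -4.28, -3.44 and -3.77 in the smolts and 0.25, 1.38, 2.80 and 0.85 in the spring fish, in the same order of fish. The groups did not overlap, and smolt 1435 was again the smolt nearest to the spring fish. The difference was 4.48 (SE 0.64; 95% interval 3.08 to 5.88; limma, adjusted p = 6.7e-04). In the limma fit of all 82 arrays with a term per group this difference was not called (adjusted p = 0.0576). With season, year and origin as terms instead, the baseline was the river smolts of both years and origins. The difference was then 3.88 and was called (limma, adjusted p = 0.0453).

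In the other direction, C071R121 read 2.95, 1.58, 1.12 and 0.94 in the smolts and -2.74, -5.15, -2.15 and -0.72 in the spring fish. All smolts lay above 0 and all spring fish below it, with spring fish 2134 the lowest by far. The spring fish were lower by 4.34 (difference -4.34, SE 0.74; 95% interval -5.95 to -2.73; limma, adjusted p = 0.00175).

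C163R101 lay below 0 in all 8 fish. It read -1.39, -0.87, -3.74 and -2.20 in the smolts and -4.95, -3.96, -6.24 and -4.55 in the spring fish. The groups were separated by a small gap only, between smolt 1441 and spring fish 2134. Its difference of -2.87 (SE 0.58; 95% interval -4.14 to -1.60; limma, adjusted p = 0.00438) was not called when fork length was a covariate, where it was -2.43 with adjusted p = 0.0677. The fit of all 82 arrays with season, year and origin set the spring fish against the river smolts of both years and origins. There the difference was -1.30 (adjusted p = 0.203), and without the wide-spread arrays -1.27 (adjusted p = 0.213), neither of them called in limma. A term per group keeps the wild smolts of the comparison alone as the baseline. The difference was then -2.87 and was called, both in all 82 arrays (limma, adjusted p = 0.0282) and without the wide-spread ones (adjusted p = 0.0135).

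**Figure D1:**
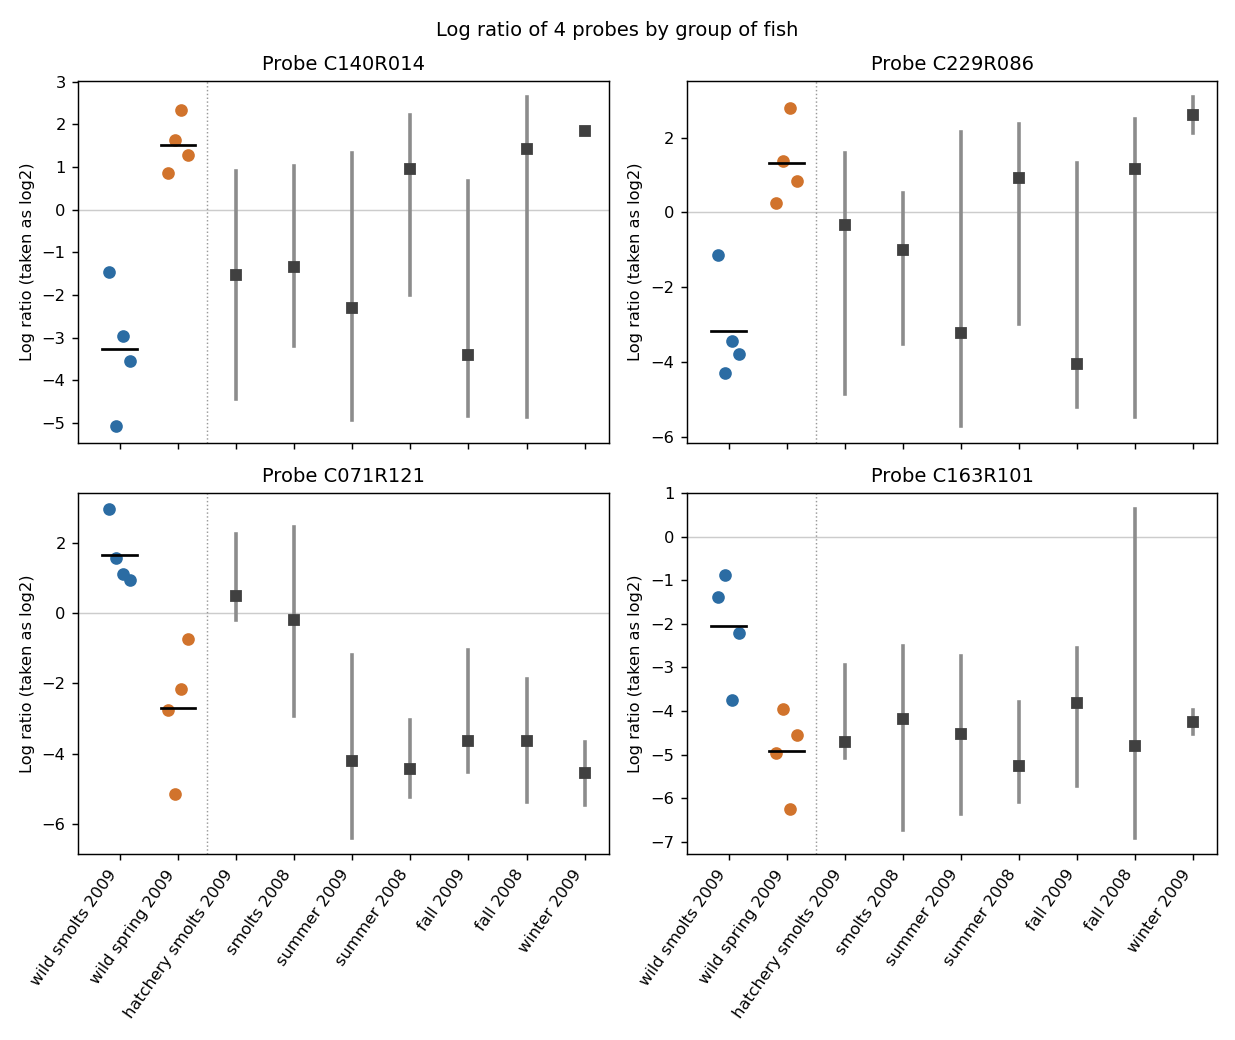
Log ratio (vertical axis, taken as log2) of probes C140R014, C229R086, C071R121 and C163R101 by group. Coloured points are the 8 wild fish and black bars their means (n = 4 per group); grey lines run from the lowest to the highest of the other fish of each season and year, with squares at the median. C071R121 has a positive median in hatchery smolts of 2009 and a median below -3 in each summer, fall and winter group, while 3 of the 4 wild smolts lie above every hatchery smolt of 2009 for C163R101.

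The rule for describing probes took the 10 largest differences in each direction among called probes measured in all 8 fish. The 10 that were higher in spring fish differed by 4.04 to 4.79, and the 10 that were lower by -4.34 to -2.29. In the 10 higher probes all 40 smolt values lay below 0, and 39 of 40 spring values lay above it. Single fish held the ends of these ranges repeatedly: spring fish 2247 had the highest spring value in 9 of these 10 probes, smolt 1435 the highest smolt value in 7 and smolt 1439 the lowest in 6. In the 10 lower probes 33 of 40 smolt values lay above 0 and 39 of 40 spring values below it. These counts come from 10 probes in the same 8 fish. The probes were chosen by their differences in those fish, which favours such values.

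The rule also took the 3 largest differences each way among called probes with an empty value in some fish. The 3 increases were 3.66 to 3.79, each with a value in 2 or 3 smolts and in all 4 spring fish. The 3 decreases were -4.51 to -4.24, each with a value in all 4 smolts and in 2 or 3 spring fish. The 3 largest decreases measured in all 8 fish were -4.34, -2.87 and -2.55. So few extreme probes do not describe the others with an empty value. The 4 probes with the lowest p-values in the whole comparison were all higher in spring fish, by 3.32 to 4.24, at an adjusted p of 2.05e-05 in limma.

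Of 24881 probes tested, 7041 (28.3%) were called at an adjusted p below 0.05 in limma, 3720 higher (15%) and 3321 lower (13.3%) in spring fish. A called difference had a median size of 1.17, against a median SE of 0.28. Calls were about equally frequent among the 16817 probes with a value in all 8 fish, at 27.8%, and among the 8064 with a value missing, at 29.4%. The median difference over all tested probes was -0.13, and -0.14 after quantile normalization. No smolt value overlapped a spring value in 6444 of the 7041 called probes; over all tested probes the groups did not overlap in 36.7%. Among probes measured in all 8 fish this held for 4132 of 4669 called probes and for 30.9% of those tested.

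The large differences ran mainly one way. At least 2-fold differences were called for 2925 probes higher and 1706 lower in spring fish, at least 4-fold for 795 and 71, and at least 8-fold for 139 and 7. Quantile normalization called 7740 probes, 3849 higher and 3891 lower. It placed 639 at least 4-fold higher and 82 at least 4-fold lower.

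In the plot of group means, probes higher in spring fish extended far to the left of 0. For 3230 of the 3720 higher probes the smolt mean lay below 0 and the spring mean above it; for 2230 of the 3321 lower probes it was the reverse. Among the 795 probes at least 4-fold higher, the median smolt mean was -1.86 and the median spring mean 0.68, and the smolt mean was farther from 0 than the spring mean in 762. Among the 71 at least 4-fold lower, the medians were 0.90 in smolts and -1.64 in spring fish, and the smolt mean was farther in 21. Over all called probes the smolt mean was the farther one in 66.0%, against 54.6% of all tested probes.

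**Figure D2:**
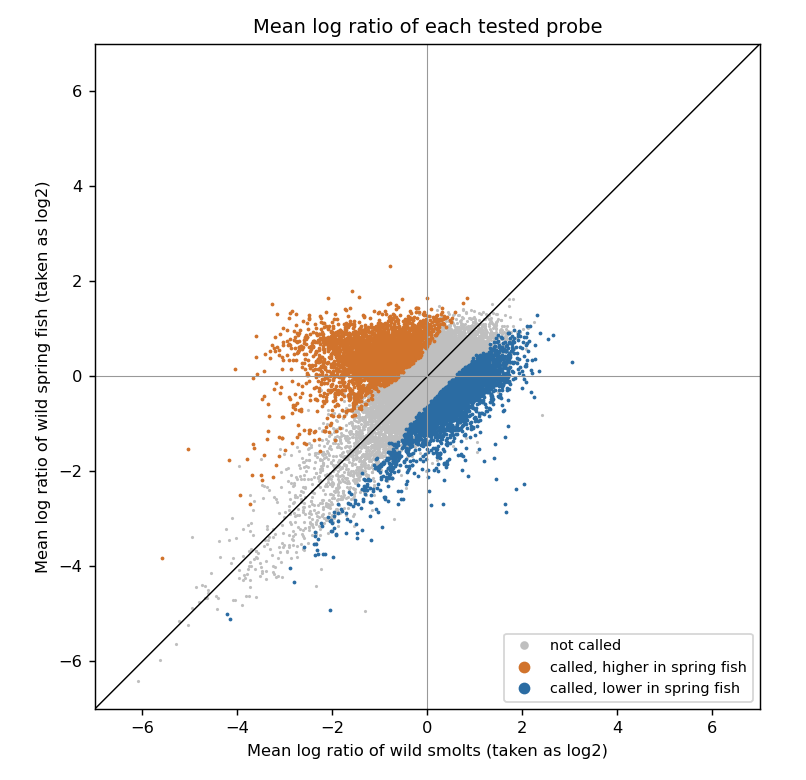
Mean log ratio of the 4 wild smolts (horizontal axis) and of the 4 wild spring fish (vertical axis), both taken as log2, with 1 point for each of the 24881 tested probes. Orange points are the 3720 called higher and blue points the 3321 called lower in spring fish; the diagonal marks equal means. The orange points reach farther from the diagonal than the blue ones, in the region where smolts lie below 0 and spring fish above it.

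The spread of the arrays moved with the groups. The within-array SD was 0.85, 1.06, 0.91 and 0.86 in the smolts and 0.64, 0.79, 0.79 and 0.79 in the spring fish, so that every smolt array was wider than every spring array. The means were 0.920 ± 0.097 (SD, n = 4) and 0.752 ± 0.077 (SD, n = 4), with a two-sided exact permutation p of 0.0286, the smallest that 4 against 4 fish allow. The part of the array spread in the probe differences was not tested. The number of probes with a value per array was 23004 to 26458 in smolts and 18347 to 31187 in spring fish (two-sided exact permutation p = 0.8), and the lowest of all was spring fish 2133.

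Fork length also leaned with the groups, at 9.4 ± 1.54 cm (SD, n = 4) in smolts and 11.5 ± 1.37 cm (SD, n = 4) in spring fish (two-sided exact permutation p = 0.0857). With fork length as a covariate the count of called probes was 2395, with 1590 higher and 805 lower, and 2269 of them were among the 7041. Smolt 1442 and spring fish 2248 went against the order of sizes, the first longer than 2 of the spring fish and the second shorter than that smolt.

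Across probes, arrays resembled their own group. Pearson's r between 2 smolts was 0.687 to 0.807 over the probes they shared, between 2 spring fish 0.653 to 0.819, and between a smolt and a spring fish -0.069 to 0.492. All arrays share the same pool. The lowest value within the smolts, 0.687 for fish 1435 and 1439, was above the highest between the groups. The 2 spring capture sites did not form separate pairs: r was 0.701 and 0.729 within a site, and 0.653 to 0.819 between sites.

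Empty values were uneven between the groups. A value was present in all 4 spring fish and in no smolt for 45 probes, and in all 4 smolts and no spring fish for 10. With at least 3 of 4 fish measured, these counts were 677 and 60. The sources used here do not say why a value was left empty, and an empty value was not read as a low level. Spring fish 2133, with the fewest values, was the missing fish in 3141 of the 3263 probes measured in all 4 smolts and 3 of the spring fish.

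Smolt 1439 and spring fish 2134 were hybridised on the same slide, the only slide with fish of both groups. Without this pair (an alternative added after the data were seen) 3774 of 22335 tested probes were called, with 2372 higher and 1402 lower. Read within the slide, 3646 of the 3727 with a value in both fish (97.8%) had the same sign as in the other 6 fish, against 79.6% of all 21873 probes. The spring fish minus the smolt within the slide was 6.70 for C140R014, 5.66 for C229R086, -6.73 for C071R121 and -3.09 for C163R101. These signs were fixed in advance: the pair is among the 8 fish, and the groups did not overlap in any of these probes.

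Each fish was also held out of the fit in turn, a reading added after seeing the data. Shares were taken over the probes then called that had a value in the held-out fish, 4779 of 6496 for spring fish 2133. The held-out smolts were nearer to the smolt mean than to the spring mean in 79.4% (1435), 92.7% (1439), 80.9% (1441) and 76.1% (1442). The held-out spring fish were nearer to the spring mean in 82.9% (2133), 93.0% (2134), 92.4% (2247) and 91.0% (2248). All 8 fish thus fell on the side of their own group, and smolt 1442, the longest smolt, had the lowest share. Over the 7041 calls a fish at 0 throughout would be nearer the spring mean in 66.0%. Shares of smolts and of spring fish therefore do not compare directly. Leaving out single fish gave 4899 to 6867 calls; the count of lower probes was 3321 with all fish, 1959 without spring fish 2134, 2028 without 2247 and 2043 without 2248.

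The side on which the other 74 fish fell was read from the 7041 called probes, which those fish had not been used to choose. Each fish was read over those of the probes in which it had a value. The share of probes nearer the spring mean had a median of 56.8% in the 8 hatchery smolts of 2009 (26.7% to 87.2%), from the capture area chehalis, and of 39.2% in the 15 smolts of 2008 (20.2% to 70.4%). Fish at sea were spread more widely: the median was 85.9% in the 7 summer fish of 2008 (31.7% to 93.6%), 55.7% in the 15 of 2009 (11.1% to 93.4%), 83.6% in the 15 fall fish of 2008 (9.13% to 91.9%) and 27.4% in the 12 of 2009 (11.0% to 81.6%). Both winter fish were on the spring side, at 91.0% and 91.2%. Of the 51 other fish at sea 33 were nearer spring in over 50% of the probes, and of the 23 other smolts 8 were. The 50% line is not neutral: a fish at 0 in every called probe would be nearer spring in 66.0% of them. The median of the hatchery smolts of 2009 lay below that level. So did the medians of the smolts of 2008 and of the summer and fall fish of 2009. The probes that separated the 8 wild fish therefore did not separate river from sea in all other fish.

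Wide-spread arrays lay on the smolt side without exception. These were the 14 of 82 arrays whose log ratios had an SD above 1.30, none of them among the 8 wild fish. Their shares nearer the spring mean were 9.13% to 49.7%, the highest in smolt 4 of 2008. Both smolts and fish at sea were among them: 8 of the 15 smolts of 2008 and 44 of the 51 other fish at sea were on other arrays. Without the wide-spread arrays the summer fish of 2009 had a median of 80.6% (10 fish, 25.4% to 93.4%), while the fall fish of 2009 stayed at 35.4% (11 fish). In the 5 wild fall fish of 2009, none on a wide-spread array, the median share was 19.4% and the highest 79.3%.

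**Figure D3:**
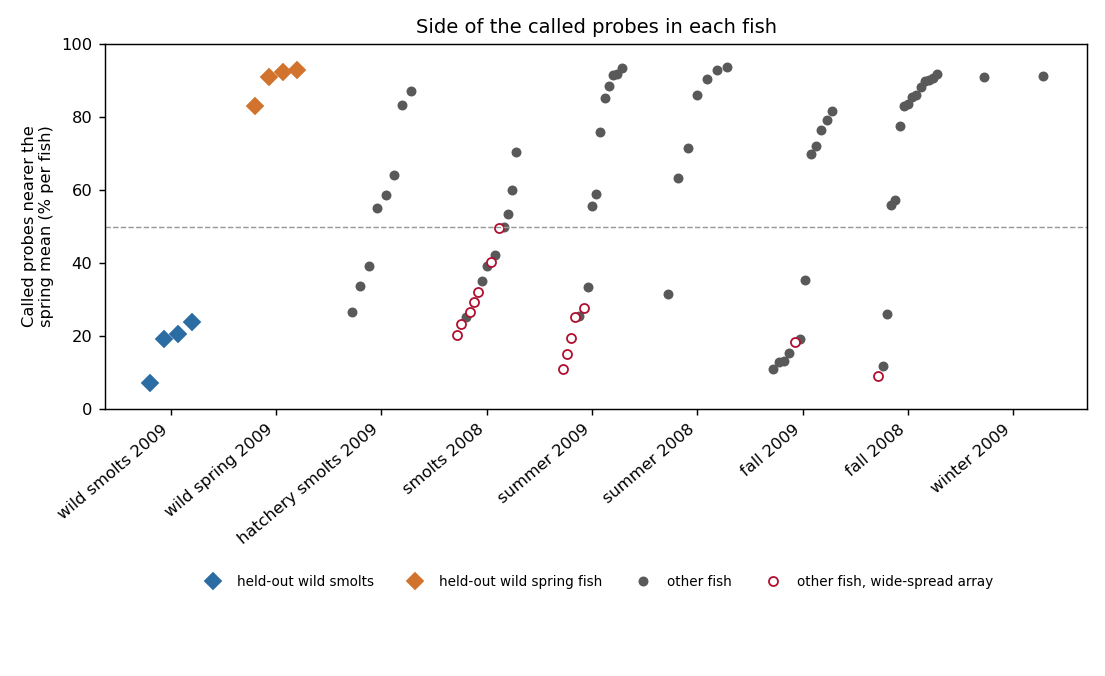
Share of called probes (vertical axis, percent) in which a fish lay nearer the mean of the wild spring fish than that of the wild smolts, for each fish by season and year. Diamonds are the 8 wild fish, each read from the fit without it; dots are the 74 other fish, with open red circles for the 14 wide-spread arrays. Held-out smolts lie at 7.25% to 23.9% and held-out spring fish at 82.9% to 93.0%, while fall fish of 2009 lie on both sides.

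A parallel from the same year used fish that share no animal with the wild comparison. It was the step from hatchery smolts of 2009 (8 fish) to hatchery ocean summer fish of 2009 (7 fish), a later season. Origin, river, capture areas at sea and fork length also differed from the wild step, and these cannot be told apart. The hatchery step called 182 of 21103 probes (0.862%) in limma. Of the 6102 wild calls tested there, 49.8% had the same sign, against 46.1% of all probes tested in both. The share was 60.6% for the higher calls, 37.1% for the lower calls and 72.8% for wild differences of at least 4-fold, so that most lower calls had the opposite sign. Of the 7 summer arrays, 2 were wide-spread. Without these, 366 of 21514 probes (1.7%) were called, and 77.2% of 6194 wild calls had the same sign, against 64.1% of all probes; for wild differences of at least 4-fold this share was 91.0% of 802. The share was then 81.5% for the higher and 71.9% for the lower calls. With all arrays kept and quantile-normalized it was 67.9% for the higher and 52.0% for the lower calls, against 53.2% of all probes. Whether most lower calls had their wild sign thus depended on these 2 arrays and on the scaling. Wild differences of at least 4-fold were mainly higher ones (795 called, against 71 lower), so their shares say little about large lower calls.

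C071R121 was called in this hatchery step too. It ranged from -0.19 to 2.24 in the 8 hatchery smolts and from -6.40 to -1.94 in the 7 hatchery summer fish, with no overlap. Its difference was -4.56 (SE 0.58; limma, adjusted p = 0.000865) in hatchery fish beside -4.34 in wild fish. The other 3 probes were not called: hatchery fish differed by 0.14 (95% interval -1.94 to 2.23) for C140R014, by -0.57 (-3.12 to 1.98) for C229R086 and by -0.13 (-1.02 to 0.76) for C163R101. The values of C140R014 in hatchery smolts, -4.45 to 0.90, and in hatchery summer fish, -4.04 to 1.32, overlapped each other widely, while smolt 1439 lay below both ranges and spring fish 2134 and 2247 above both.

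Whether the wild step to spring differed from the hatchery step to summer was tested directly in 1 fit of the 4 groups. The difference of the steps was called for 353 of 21009 probes (1.68%), and for 662 of 21326 (3.1%) without the wide-spread arrays. Of the 353, 310 were wild calls, which is 5.08% of the 6102 wild calls tested, against 1.68% of all probes. The shared wild fish favour this count. It was not called for C140R014 (4.64, 95% interval 1.54 to 7.75, adjusted p = 0.0887), C229R086 (5.05, 1.30 to 8.80, adjusted p = 0.112) or C163R101 (-2.74, -4.37 to -1.12, adjusted p = 0.0647) in limma. For C071R121 it was 0.22 (95% interval -1.96 to 2.41, adjusted p = 0.898). After quantile normalization C163R101 was called, at -3.43 (adjusted p = 0.0383), so for this probe the call of a difference between the steps depended on the scaling.

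All other fish were then fitted together, 23 river smolts against 51 fish at sea with year and origin as covariates, a comparison added after seeing the data. It called 6393 of 21860 probes (29.2%), and 6529 of 23259 (28.1%) without the wide-spread arrays. The wild calls had the same sign there in 72.7% of 6286, against 63.1% of all probes tested in both. The share was 84.4% of 786 for those of at least 4-fold, which were mainly higher ones. The wild calls were themselves called in 25.1%, no more often than the 29.3% of all probes tested in both. C071R121 was lower at sea there as well, by -4.14 (95% interval -4.81 to -3.47; limma, adjusted p = 5.08e-16). C140R014 (1.12, 95% interval 0.03 to 2.22), C229R086 (0.52, -0.73 to 1.76) and C163R101 (-0.02, -0.64 to 0.61) were not called.

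The levels of these probes in other fish set these results side by side. C071R121 had a median of 0.48 in hatchery smolts of 2009 and -0.19 in smolts of 2008, and between -4.55 and -3.63 in each summer, fall and winter group. C163R101 had a median of -4.70 in hatchery smolts of 2009 and -4.17 in smolts of 2008, close to the -4.92 ± 0.97 (SD, n = 4) of the wild spring fish and below the -2.05 ± 1.25 (SD, n = 4) of the wild smolts. C140R014 had a median of -1.54 in hatchery smolts of 2009 and -1.35 in smolts of 2008. At sea it was -2.31 and -3.41 in summer and fall fish of 2009, and 0.94 and 1.43 in those of 2008. For C229R086 these medians were -0.34 and -0.99 in smolts, -3.21 and -4.05 at sea in 2009, and 0.92 and 1.15 in 2008. The winter medians were 1.86 for C140R014 and 2.60 for C229R086. Without the wide-spread arrays their summer medians of 2009 were 0.21 and -0.27. With the 8 hatchery smolts added to the 4 wild ones, the difference for C163R101 was -1.34 and was not called (limma, adjusted p = 0.226). C229R086 was not called either, at 2.98 (adjusted p = 0.0951), C140R014 was called at 3.65 (adjusted p = 0.0303), and that for C071R121 was -3.71 and was called (adjusted p = 0.00264). Over all probes this fit of 12 smolts of 2009 called 1051, 459 higher and 592 lower in spring fish.

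**Figure D4:**
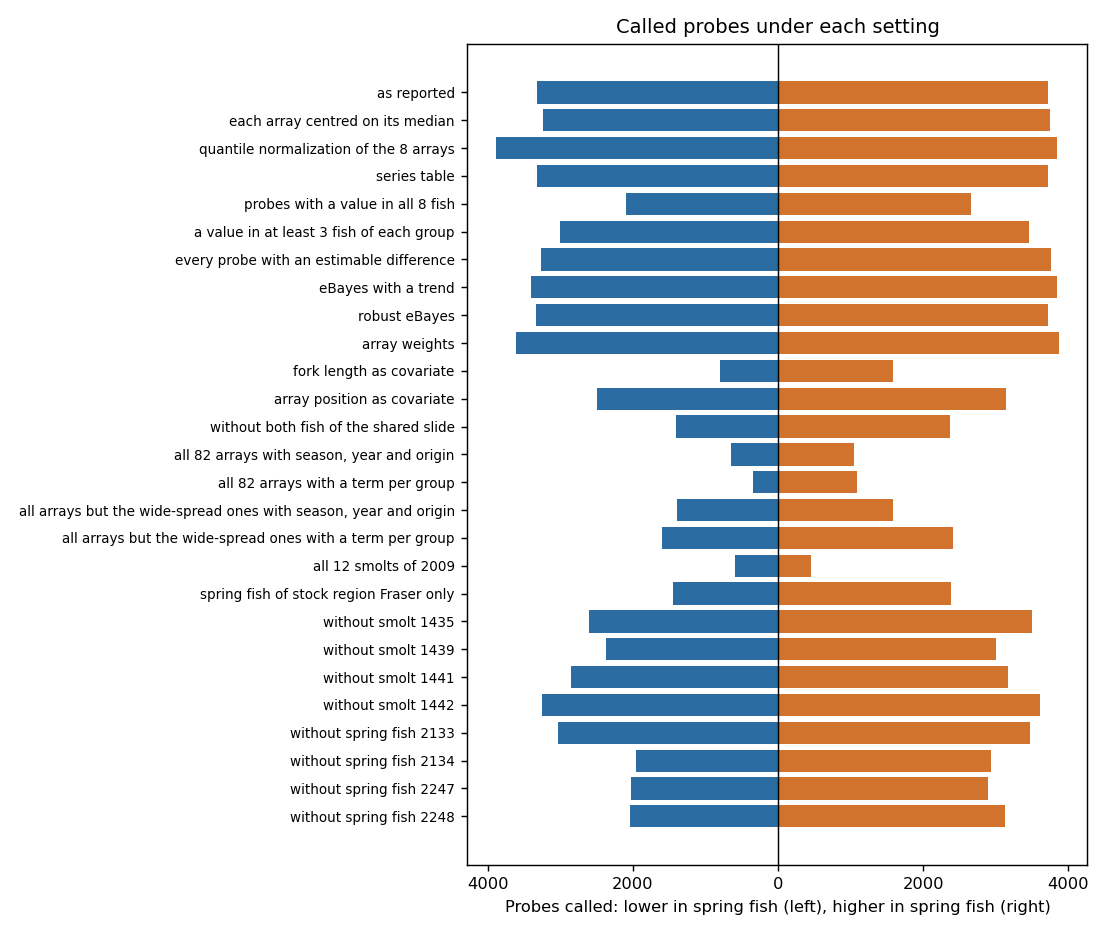
Probes called lower (blue, left) and higher (orange, right) in wild spring fish than in smolts, as counts on the horizontal axis, for the reported fit and each alternative. The counts are 3321 and 3720 as reported; the shortest bars belong to the fits with all 82 arrays and with all 12 smolts of 2009.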

How the data were processed

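Gill RNA was measured on 2-colour arrays; per the labels' protocols it was extracted with MagMAX-96 kits, amplified, and labelled with 1 Alexa dye for the fish and another for the pool, the same way on every array. The authors deposited log ratios, taken here as log2: as natural logs the lowest, -11.30, would be a ratio of 80993. The sources used here do not name the scanner, the background correction, the normalization or the rule for empty values. After 60 control spots were dropped, the table had 43236 probes, and 45.6% of the values were empty. The authors' series table held identical values for the 8 fish. In 1 array, of another fish, 17574 values were present in only 1 of the tables. The number of arrays limits the precision.

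Each probe with a value in at least 2 fish of each group was fitted two-sided by lmFit and eBayes of limma 3.58.1 under R 4.3.3, with Benjamini-Hochberg adjustment over all tested probes and a call below 0.05. Comparisons with the hatchery fish and the other 74 fish needed values in 50% of the fish of each group. A wide-spread array had an SD over 3 scaled median absolute deviations above the median of the 82. Scripts were tested on simulated data, and permutation tests ran in scipy 1.17.1. Probes to describe were, among called probes, the 10 largest differences each way with a value in all 8 fish, the 3 largest each way with a value missing and the 4 lowest p-values. Gene lists and cell type markers had been drawn up but could not be tested, as no table paired probes with genes. Members, lists and rules were chosen with earlier results of these data known.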

Additional observations from a re-analysis of the deposited data

Results flagged for a closer look

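Fork length and array SD each had 1 fish far from the rest of its group. Smolt 1442 was 11.7 cm long and the next smolt 8.8 cm. Spring fish 2133 had an array SD of 0.636 and the next spring fish 0.785. In all, 22 groups of values were examined this way, for the 4 printed probes and the array and body measures, and 2 stood out, where chance gives about 1 in 20. Without smolt 1442 the comparison called 6867 probes, and without spring fish 2133 it called 6496.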

How the results depend on the processing

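Centring, quantile normalization, the series table, a minimum of 3 values per group, every probe with an estimable difference, a trend or robust prior, array weights and array position each kept the counts of called, higher and lower probes within 1.5 times those reported. Probes with a value in all 8 fish gave 2089 lower calls, from fewer probes tested. Leaving out single fish gave 4899 to 6867 calls, 2897 to 3616 higher and 1959 to 3251 lower. Fork length as a covariate gave 2395 calls (1590 higher, 805 lower). Leaving out both fish of the shared slide, added after seeing the data, gave 3774 of 22335 tested (2372 and 1402). Spring fish of stock region Fraser only gave 3839 (2390 and 1449). Both of these fits had fewer fish. All 82 arrays with season, year and origin gave 1695 (1048 and 647) and with a term per group 1442 (1093 and 349); without the wide-spread arrays, added after seeing the data, these were 2981 (1582 and 1399) and 4003 (2406 and 1597). The fits with season, year and origin had the river smolts of both years and origins as the baseline. All 12 smolts of 2009 gave 1051 (459 and 592). The cause was not tested.

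Of the 28 probes taken by the rule none reversed. Where tested, 14 were not called with all 12 smolts, 5 and 6 with all 82 arrays, 5 in the first fit without the wide-spread arrays and 1 with fork length; no other setting lost one. The hatchery step called 182 probes, 366 without the wide-spread arrays and 356 after quantile normalization, with 49.8%, 77.2% and 60.6% of wild calls in the same sign. The difference of the steps was called for 353, 662 and 891 probes in that order.

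No paired analysis was possible because the fish numbers are not shared between the groups. Slide as a random block was not run: only 1 slide held more than 1 of the 8 arrays, too few to estimate its correlation. For smolt 1442 the labels give 2 different slides. Small differences are limited by 4 fish per group: the smallest called difference was 0.57.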
